A study of Mus musculus with 4 samples.

Results

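The 10 genes described here, Plac8, Plac1, Cited1, Cdx2, Elf5, Gata3, Tead4, Tfap2c, Rhox6 and Rhox9, are known from the trophoblast and the placenta, and their transcripts were measured in mouse embryonic stem (ES) cell lines labelled as knockout or conditional knockout for the histone demethylase UTX. The genes were chosen by name, with earlier results of these data known. Every probe set that the array's annotation assigns to one of them and to no other gene was taken. This gave 15 probe sets, with 6 genes read by 1 probe set each and the other 4 by several, among 18193 genes with such a probe set on the array. Kdm6a, on the X chromosome, is the gene for UTX, which takes methyl groups off lysine 27 of histone H3. The study set 2 UTX knockout (KO) ES cell lines against 2 UTX conditional knockout (cKO) lines, with 1 Affymetrix whole-genome array for each line. All 4 lines had been grown on irradiated fibroblast feeders in medium with serum and the cytokine LIF, were passaged on gelatin to remove the feeders, and were collected without feeders. The labels call the cKO lines independent. They do not describe the targeted allele, the recombinase, the sex of the lines or separate cultures, so the p-values below measure only the spread between these samples, which may be technical.

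Trophoblast is the first lineage to part from the embryo proper and forms the epithelium of the placenta. In the mouse blastocyst the factor TEAD4, working with the Hippo pathway effector YAP, switches on Cdx2 and Gata3 in the outer cells, while OCT4 holds the inner cells pluripotent. Cdx2, Eomes, Elf5 and Tfap2c then maintain trophoblast stem cells, and genes such as Plac1, Plac8, Cited1, Rhox6 and Rhox9 are used in the placenta that grows from them. ES cells come from the inner cells and do not normally enter this lineage.

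Each value is the MAS5 signal of a probe set, a linear intensity in arbitrary units that summarises several short probes. The trimmed mean of the deposited signals was 500.0 on every array. The median signal ran from 64.9 to 81.6 in KO lines and from 64.4 to 76.6 in cKO lines, and was higher in line 1 than in line 2 of either group. Precision is limited by the number of arrays. Kdm6a read 265 and 198 in KO lines 1 and 2, against 658 and 415 in cKO lines 1 and 2, a log2 fold change of -1.17 that missed the threshold (limma, adjusted p = 0.0884). It passed with centring on the median (adjusted p = 0.00847), under a block for the line number, and without KO line 1 or cKO line 2, but averaging its probe sets gave -0.57 (adjusted p = 0.522) and leaving out cKO line 1 gave -0.84 (adjusted p = 0.239). A second Kdm6a probe set read 153 and 132 in KO lines 1 and 2, against 382 and 267 in cKO lines 1 and 2. Fitted among all probe sets it gave -1.14 (limma, adjusted p = 0.102). The remaining probe sets in the average were dim, between 8.01 and 43.0 on every array. The positions of the Kdm6a probes relative to the deleted part are not known here. Genes whose mean lay in the lower 40% of all genes, under a signal of 77.7, were not tested, since dim signals lie nearest to background. Differences were tested with limma over the other 10916 genes on the scale log2(signal + 4.79), which understates the change of dim genes, and a gene was said to have risen or fallen when its Benjamini-Hochberg adjusted p was under 0.05.

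The lineage label was checked against the factors that define trophoblast stem cells. Elf5 and Gata3 stayed under the filter level of 77.7 on all 4 arrays, and Cdx2 exceeded it only in cKO line 1, at 141. Tpbpa, a marker of the spongiotrophoblast, read 9.76 and 11.5 in KO lines 1 and 2 and 5.59 and 5.93 in cKO lines 1 and 2. Tfap2c and the placental factors Hand1 and Ascl2 were above that level on all 4 arrays, and Eomes was above it on all but KO line 2. Of 17 trophoblast markers, members among them, 14 had a probe set that names a single gene, and of these 9 were tested and 3 (Elf5, Gata3 and Tpbpa) were under the filter level on every array. Among the 9 only Plac8 and Cited1 passed, where 2.2% of all genes tested did. The 14 had summed signals of 5346 and 4958 in KO lines and 6751 and 6274 in cKO lines. Plac8 alone read 527 and 652 in KO lines and 3014 and 3423 in cKO lines, a wider gap than that of the sums. Tfap2c, Rhox6 and Rhox9 went the other way, with higher signals in both KO lines, so the sums describe no shared direction. The name of the group describes where its genes are known from, not the cells measured. In bulk RNA, fewer cells of a type and less RNA per cell cannot be told apart.

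**Figure D1:**
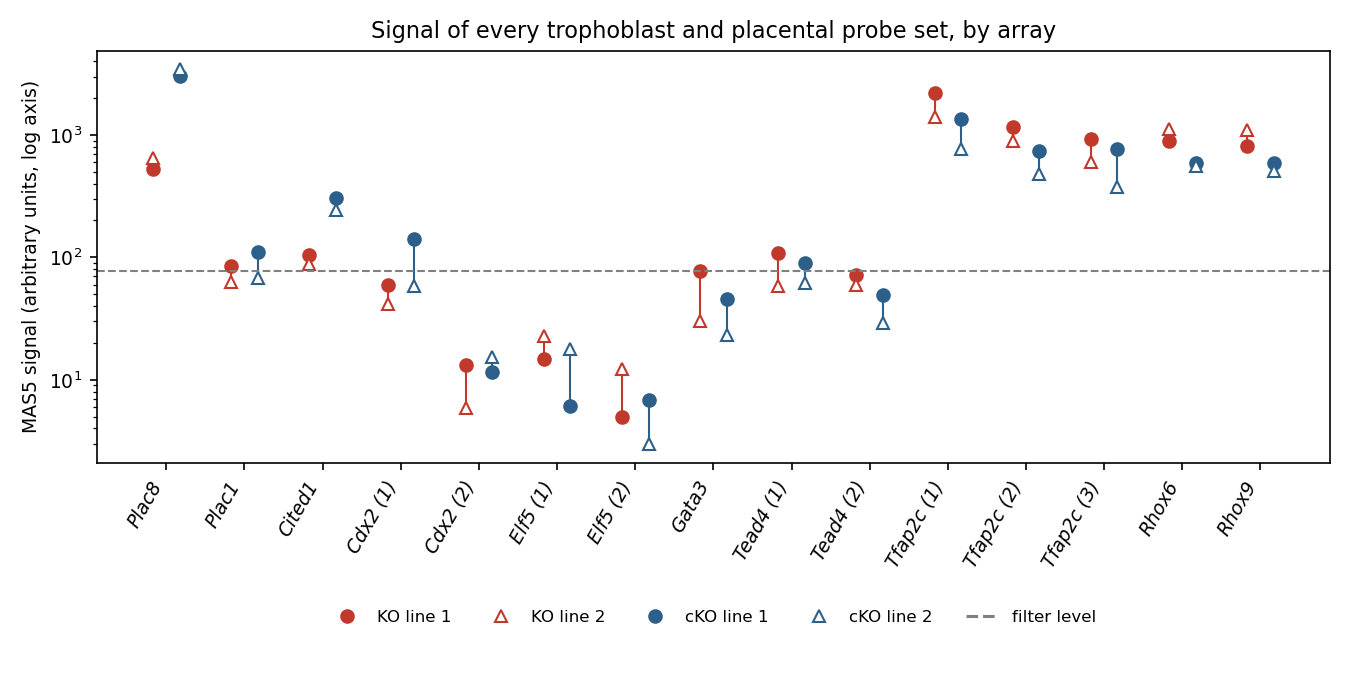
MAS5 signal (log axis, arbitrary units) of the 15 probe sets of the 10 genes, with KO lines in red to the left and cKO lines in blue to the right, line 1 as a filled circle and line 2 as an open triangle; numbers in brackets tell apart the probe sets of a gene. For Plac8 and Cited1 both KO arrays lie under both cKO arrays, and the probe sets of Elf5, Gata3 and Cdx2 lie, but for 1 array, under the dashed filter level of 77.7.

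Of the 10 genes 6 were tested, of which 2 fell in KO cells, 0 rose and 4 did not pass. Plac8 fell 5.46-fold and Cited1 2.82-fold, while Tfap2c, Rhox6 and Rhox9 had higher signals in both KO lines than in either cKO line without passing the threshold. Over all 10916 genes tested, 2.2% passed, 1.57% as falls and 0.632% as rises. The same genes passed when every probe set above the filter level was tested in place of 1 for each gene, where 1.27% of 18797 probe sets passed. The groups did not overlap for 5 of the 6 tested members, 3 with higher and 2 with lower KO values, against 42.6% of all genes tested, 21.4% with higher and 21.2% with lower KO values. An unadjusted p under 0.05 was reached by 5 of the 6, against 13.8% of all genes tested, among them the 3 with higher KO values. The members were chosen with earlier results of these data known, so such shares are no independent evidence about the group. The median log2 fold change of the 6 was 0.28, beside 0.01 over all genes tested. The members went both ways, and their median was 0.03 without KO line 1, 0.49 without cKO line 1 and -0.08 without cKO line 2. The 4 genes that were not tested are Cdx2, Elf5, Gata3 and Tead4, and the groups overlapped for each of them in the probe set that stands for the gene. The count of members that passed ran from 1 to 4 with 1 array left out, and it was 5 in a model that took the line number as a block.

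Plac8 encodes a small cysteine-rich protein named for its abundance in the mouse placenta, and it is transcribed in several other tissues. Its signal was 527 in KO line 1 and 652 in KO line 2, against 3014 in cKO line 1 and 3423 in cKO line 2. The lines of a group lay close together, with a wide gap between the groups. The mean was 590 ± 88.9 in KO lines and 3219 ± 289 in cKO lines (SD, n = 2 each), 5.46-fold lower in KO, so that the KO mean was 18.3% of the cKO mean. The log2 fold change was -2.44 (SE 0.17, 95% interval -2.85 to -2.04), with an adjusted p = 0.00441 in limma. By its p Plac8 stood at rank 2 of the 10916 genes tested, and only 8 genes had a lower log2 fold change. The KO level remained well above the filter level, so that the transcript was reduced and not lost from view. Each of the alternatives run for Plac8 kept the fall, with log2 fold changes between -2.60 and -2.29 and a highest adjusted p of 0.0431, reached in limma without a trend of variance on signal.

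Cited1, on the X chromosome, encodes a transcriptional co-regulator that binds CBP and p300 and is needed for normal placental development in the mouse. It read 105 and 89.1 in KO lines 1 and 2, against 303 and 244 in cKO lines 1 and 2. The KO values lay just above the filter level and the cKO values well above it, with no overlap. The means were 97.1 ± 11.3 in KO lines and 274 ± 41.4 in cKO lines (SD, n = 2 each), 2.82-fold lower in KO. The log2 fold change was -1.45 (SE 0.25, 95% interval -2.04 to -0.86), with an adjusted p = 0.0372 in limma. The fall was smaller than that of Plac8 and was lost under several alternatives. Leaving out cKO line 1 gave -1.29 (adjusted p = 0.156), and leaving out cKO line 2 gave -1.60 (adjusted p = 0.0546), so that it passed in neither case. It also missed the threshold when dim genes were kept in (adjusted p = 0.104) or the variance trend was left off (adjusted p = 0.0554). Its direction was the same in every alternative that tested it.

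The starts of the genes that fell are shown because the histone mark that UTX removes is found at the promoters of silent genes. RefSeq (build GRCm38.p6) gives windows of 300 bases, 250 before and 50 after a transcript's start, for 6 of the 10 genes, namely Plac8, Plac1, Cited1, Cdx2, Elf5 and Gata3. They were searched on both strands for the TATA box (TATAAA), the CCAAT box (CCAAT), and motifs of trophoblast factors, written here as GGAATG for TEAD, GCCNNNGGC for AP-2 (the family of Tfap2c), TTTATG for CDX and AGATAA for GATA. No match overlapped another in the windows printed, where capitals mark the matches. The windows are Plac8 window 1 at chr5:100572156-100572455 and Plac8 window 2 at chr5:100563047-100563346. Those of Cited1 are window 1 at chrX:102252132-102252431 and window 3 at chrX:102250727-102251026. All 4 lie on the minus strand and are written 5′ to 3′ along the gene.
Plac8 window 1: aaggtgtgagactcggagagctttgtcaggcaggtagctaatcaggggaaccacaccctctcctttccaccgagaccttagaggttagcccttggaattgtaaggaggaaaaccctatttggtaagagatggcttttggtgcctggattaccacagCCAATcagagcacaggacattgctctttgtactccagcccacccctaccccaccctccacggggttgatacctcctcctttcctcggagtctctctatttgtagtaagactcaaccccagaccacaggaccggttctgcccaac
Plac8 window 2: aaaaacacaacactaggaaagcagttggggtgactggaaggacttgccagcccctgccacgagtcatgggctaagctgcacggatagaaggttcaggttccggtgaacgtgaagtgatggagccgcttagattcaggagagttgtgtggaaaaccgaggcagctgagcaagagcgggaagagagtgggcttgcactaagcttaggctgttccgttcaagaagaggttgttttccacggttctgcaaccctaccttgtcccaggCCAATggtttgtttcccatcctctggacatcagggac
Cited1 window 1: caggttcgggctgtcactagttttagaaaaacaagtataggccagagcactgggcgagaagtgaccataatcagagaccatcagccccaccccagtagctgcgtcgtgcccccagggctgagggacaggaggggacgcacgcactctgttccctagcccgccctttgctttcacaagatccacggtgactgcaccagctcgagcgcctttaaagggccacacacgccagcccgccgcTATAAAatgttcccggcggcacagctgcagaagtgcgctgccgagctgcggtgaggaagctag
Cited1 window 3: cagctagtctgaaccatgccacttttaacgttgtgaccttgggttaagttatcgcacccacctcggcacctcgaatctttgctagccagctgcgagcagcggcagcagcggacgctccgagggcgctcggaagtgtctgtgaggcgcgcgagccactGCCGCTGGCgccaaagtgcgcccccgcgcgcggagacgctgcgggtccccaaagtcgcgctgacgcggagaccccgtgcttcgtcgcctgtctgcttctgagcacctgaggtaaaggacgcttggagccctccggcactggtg

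Both Plac8 windows held 1 CCAAT box, which starts 94 bases before the transcript's start in window 1 and at transcribed base 14 in window 2, and none of the other motifs. A CCAAT box is present in 37.4% of the 32851 windows of all genes. Cited1 window 1 held a TATA box from 13 bases before the start, a motif found in 13.6% of all windows. Cited1 window 3 held 1 AP-2 match from 93 bases before the start, where 16.6% of windows hold one, and window 2, which is not printed, held a TATA box and a CCAAT box. The number of CG dinucleotides was 5 and 9 in the Plac8 windows and 18, 14 and 32 in the Cited1 windows, beside a median of 7 over all windows. The genes that fell thus differ in the makeup of their starts, with CG numbers near the median for Plac8 and above it in all 3 windows of Cited1. Such matches describe letters in a window and are no sign of binding.

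**Figure D2:**
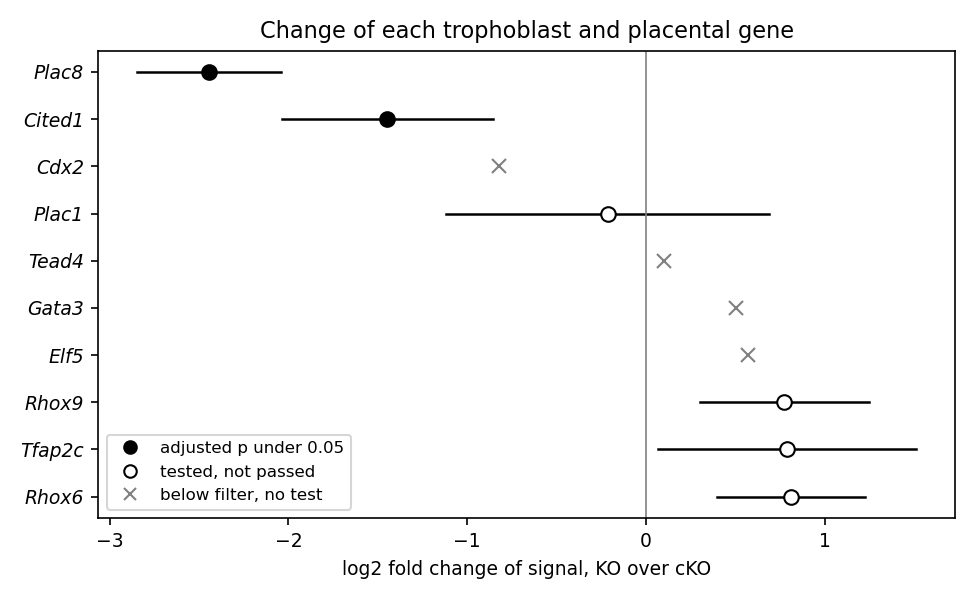
Log2 fold change of signal, KO over cKO, of the 10 genes (rows), with 95% intervals from limma for the 6 that were tested; filled circles passed an adjusted p of 0.05, open circles did not, and grey crosses are untested genes below the filter, shown as plain differences. Plac8 (-2.44) and Cited1 (-1.45) are the filled circles, and Rhox6, Tfap2c and Rhox9 lie between 0.77 and 0.81.

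Rhox6 and Rhox9 are neighbouring homeobox genes of the X-linked Rhox cluster, transcribed in the mouse placenta and in germ cells. Rhox6 read 897 and 1121 in KO lines 1 and 2, against 585 and 553 in cKO lines 1 and 2. Rhox9 read 806 and 1102 in KO lines 1 and 2, against 590 and 511 in cKO lines 1 and 2. For either gene both KO lines were above both cKO lines, as were 21.4% of all genes tested. The KO means were 1009 ± 159 for Rhox6 and 954 ± 210 for Rhox9, against cKO means of 569 ± 22.1 and 551 ± 55.2 (SD, n = 2 each). On the log2 scale Rhox6 differed by 0.81 (SE 0.18, adjusted p = 0.0732) and Rhox9 by 0.77 (SE 0.20, adjusted p = 0.126), so that neither passed in limma. The genes are close relatives, and a probe set for one may also bind transcripts of the other, so the likeness of their values is no independent repeat. Without KO line 1 the values were 0.97 (adjusted p = 0.0260) for Rhox6 and 1.00 (adjusted p = 0.0240) for Rhox9. Neither passed with another array left out, where Rhox6 was 0.65 (adjusted p = 0.207) and Rhox9 0.55 (adjusted p = 0.342) without KO line 2, and 0.77 (adjusted p = 0.184) and 0.67 (adjusted p = 0.330) without cKO line 2. A block for the line number made both pass as well, at an adjusted p of 0.0185 for Rhox6 and 0.0435 for Rhox9, though no label pairs a KO line with a cKO line. Among lines numbered 1 the difference was 0.61 for Rhox6 and 0.45 for Rhox9, and among lines numbered 2 it was 1.01 and 1.10.

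Other genes of the cluster were listed as a group of 30, of which only Rhox5 and Rhox13 had a probe set that names a single gene. Rhox5, a homeobox gene also known from placenta and testis, read 10787 and 9437 in KO lines 1 and 2, against 7415 and 8235 in cKO lines 1 and 2, with a log2 fold change of 0.37 (adjusted p = 0.187). Rhox13 read 46.2 and 154 in KO lines and 83.1 and 137 in cKO lines, so that its groups overlapped (log2 fold change -0.31, adjusted p = 0.881). Neither gene passed in limma, and of the pair Rhox5 alone had an unadjusted p under 0.05.

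Tfap2c encodes the transcription factor AP-2 gamma, which acts in trophoblast stem cells and in the germ line. It had 3 probe sets above the filter level. The probe set that stands for the gene read 2186 and 1412 in KO lines 1 and 2, against 1346 and 766 in cKO lines 1 and 2. A second read 1153 and 896 in KO lines and 736 and 481 in cKO lines, and the third 924 and 598 in KO lines and 768 and 373 in cKO lines. The groups were separate in the first and the second and overlapped in the third, where KO line 2 lay under cKO line 1. Line 1 was above line 2 in either group and in each probe set, and the spread between lines was about as wide as the gap between groups. The log2 fold change was 0.79 (SE 0.31, 95% interval 0.07 to 1.51, adjusted p = 0.312 in limma) for the first probe set. Fitted among all probe sets, the second gave 0.77 (adjusted p = 0.259) and the third 0.47 (adjusted p = 0.709). The value for the gene depended on which array entered. Leaving out KO line 2 gave 1.10 (adjusted p = 0.0498), and leaving out cKO line 1 gave 1.19 (adjusted p = 0.0333), so that Tfap2c passed. Leaving out KO line 1 gave 0.47 (adjusted p = 0.562), and leaving out cKO line 2 gave 0.38 (adjusted p = 0.806). A block for the line number made it pass (adjusted p = 0.00835). Between lines of the same number the difference was 0.70 for number 1 and 0.88 for number 2.

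Plac1, an X-linked gene for a membrane protein of the trophoblast that is needed for normal placental growth in the mouse, lay at the edge of the filter. It read 85.7 and 63.2 in KO lines 1 and 2, against 110 and 67.4 in cKO lines 1 and 2. The groups overlapped, and line 1 was above line 2 in each. The log2 fold change was -0.21 (SE 0.38, 95% interval -1.12 to 0.69, adjusted p = 0.881 in limma), so that a change in either direction remains possible at this precision. Without cKO line 1 the value was 0.12.

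The 4 transcription factors Cdx2, Elf5, Gata3 and Tead4 were dim, and none of them was tested. Tead4, which binds DNA with YAP, missed the filter by little, at a mean of 77.2 over the 4 arrays, where Plac1 was kept at 79.7. Its first probe set read 109 and 58.2 in KO lines 1 and 2 and 89.4 and 61.9 in cKO lines 1 and 2, with line 1 above line 2 and the groups interleaved. Its second probe set read 71.3 and 59.0 in KO lines and 49.2 and 28.9 in cKO lines, all under the filter level though separate. With its probe sets averaged Tead4 entered the fit, at a log2 fold change of 0.40 (adjusted p = 0.794). Gata3, a zinc finger factor that promotes trophoblast fate beside Cdx2, read 76.7 and 30.4 in KO lines and 46.0 and 23.4 in cKO lines. Its lines differed more within the groups, 2.52-fold in KO and 1.97-fold in cKO, than its means did between them.

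Cdx2, the caudal-type homeobox factor of the trophectoderm, read 58.9 and 41.5 in KO lines 1 and 2 and 141 and 58.5 in cKO lines 1 and 2 in its brighter probe set. The value of cKO line 1 stood alone, and cKO line 2 lay beside the KO lines. Its other probe set stayed between 5.83 and 15.3 on every array. Elf5, an ETS-family factor that reinforces trophoblast stem cell identity, read at most 22.9 on any array in either of its probe sets. With no filter on low values limma gave log2 fold changes of -0.82 for Cdx2 (adjusted p = 0.719), 0.57 for Elf5 (adjusted p = 0.848), 0.50 for Gata3 (adjusted p = 0.887) and 0.10 for Tead4 (adjusted p = 0.985). A change of these factors was not detectable at such signals.

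**Figure D3:**
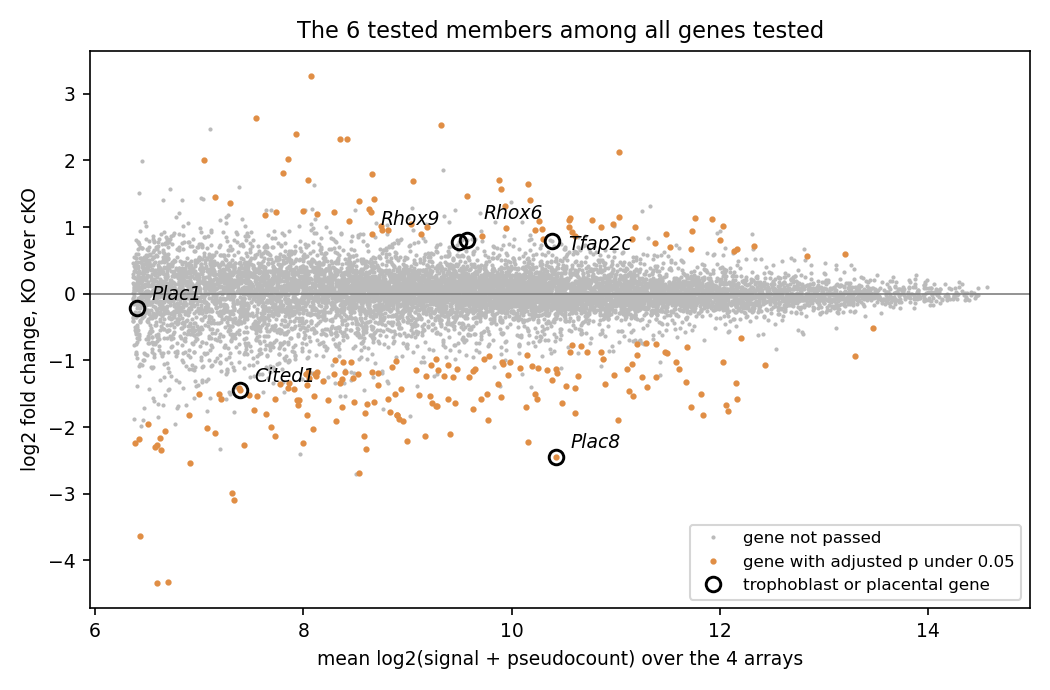
Log2 fold change (KO over cKO) against the mean log2 level of the 10916 genes tested, with the 6 tested members circled and genes that passed an adjusted p of 0.05 in orange. Plac8 lies at the lower edge of the cloud at its level, Cited1 among the dimmer genes that fell, and Rhox6, Rhox9 and Tfap2c on the upper side of the cloud among genes that did not pass.

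The genes nearest to Plac8 and Cited1 in pattern were found by the root mean square distance of centred log2 values over the 4 arrays, which with so few arrays mostly returns genes with a change of the same size. For Plac8 they were Cnn1 (distance 0.11), Cxcl12 (0.17) and Ltb (0.17). For Cited1 they were Anxa2 (0.03), Rgs17 (0.03) and Csrp1 (0.05). Of these 6 genes Rgs17 did not pass in limma (adjusted p = 0.0619). The other 5 fell. Cxcl12 missed the threshold in limma when dim genes were kept in (adjusted p = 0.0609) or the variance trend was left off (adjusted p = 0.0537). Without cKO line 2 its log2 fold change was -2.20, against -2.35 with all 4 arrays. Its KO values of 29.2 and 52.1 lay under the filter level, so Cxcl12 passed the filter through its cKO lines alone. Anxa2 (adjusted p = 0.239) and Csrp1 (adjusted p = 0.0664) missed the threshold when their probe sets were averaged. They also missed it with the variance trend left off, at an adjusted p of 0.0628 for Anxa2 and 0.0696 for Csrp1.

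Other genes of the trophectoderm and placenta were described in lists that do not hold the members. In the list of trophectoderm and trophoblast stem cell regulators, 11 of 12 genes were tested and 0 passed in limma, 3 having an unadjusted p under 0.05, with 9 positive log2 fold changes and a median of 0.31. Over all genes tested 2.2% passed, 13.8% had an unadjusted p under 0.05, 51.4% were positive and the median was 0.01. The list median ran from 0.07 without cKO line 2 to 0.55 without cKO line 1, and was 0.17 without KO line 1 and 0.51 without KO line 2. The smallest p-values belonged to Sox2 (log2 fold change 0.37, adjusted p = 0.0994) and Esrrb (0.94, adjusted p = 0.115), which trophoblast stem cells share with ES cells. Esrrb passed when KO line 2 was left out (1.17, adjusted p = 0.00775) and when cKO line 1 was (1.25, adjusted p = 0.00533), but neither when KO line 1 was left out (0.70, adjusted p = 0.123) nor when cKO line 2 was (0.62, adjusted p = 0.184), and its averaged probe sets gave an adjusted p of 0.332. Under a block for the line number 4 of the 11 passed as higher in KO, Sox2 (adjusted p = 0.0166) and Esrrb (adjusted p = 0.00280) among them. Eomes, a T-box factor that partners Cdx2, read 175 and 76.3 in KO lines 1 and 2 and 220 and 151 in cKO lines 1 and 2, with overlapping groups (-0.63, adjusted p = 0.606).

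Among genes of the Hippo pathway and the partners of TEAD factors, 16 of 17 were tested. Of the 16, 1 fell, beside 1.57% of all genes tested, and 15 did not pass. The median log2 fold change of the 16 was -0.28. The one that fell was Tead2, the family relative of Tead4 known from ES cells and early embryos. Tead2 read 422 and 412 in KO lines 1 and 2, against 950 and 911 in cKO lines 1 and 2 (log2 fold change -1.15, SE 0.16, adjusted p = 0.0199). The lines of each group nearly coincided. Its fall kept its call in every alternative but the one without the variance trend (adjusted p = 0.0537). Yap1 read 4285 and 4980 in KO lines and 5263 and 5945 in cKO lines (-0.28, adjusted p = 0.423). The list median was -0.04 without cKO line 1 and also -0.04 without KO line 2, but -0.46 without KO line 1 and -0.35 without cKO line 2.

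Family relatives of the members numbered 23, of which 9 were tested and 14 lay below the filter. Tead2 was the only one of the 9 that passed, where 2.2% of all genes tested did, and the median log2 fold change was -0.02. That median was 0.06 without cKO line 1 and 0.14 without KO line 2, but -0.20 without KO line 1 and -0.10 without cKO line 2. Cited2, the relative of Cited1 that is active in many tissues, read 1958 and 1715 in KO lines 1 and 2 and 2746 and 1982 in cKO lines 1 and 2 (-0.35, adjusted p = 0.513). Cdx4, Gata1 and Ehf were among 11 relatives under the filter level on every array.

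Of 20 genes of trophoblast differentiation and placental products, 13 had a probe set that names a single gene and 8 were tested. Of the 8, 2 fell, beside 1.57% of all genes tested, and 6 did not pass. The median log2 fold change of the 8 was -0.27. The median was -0.06 without KO line 1, -0.47 without KO line 2 and -0.51 without cKO line 1, and 1 to 3 of the 8 passed with 1 array left out, 1 of them as a rise without cKO line 1. Phlda2, an imprinted gene that restrains placental growth in the mouse, read 2784 and 2961 in KO lines 1 and 2, against 6873 and 7670 in cKO lines 1 and 2 (log2 fold change -1.34, SE 0.12, adjusted p = 0.00816). Plet1, a surface protein of trophoblast progenitors, read 180 and 173 in KO lines and 409 and 435 in cKO lines (-1.23, adjusted p = 0.0268). Phlda2 was 2.53-fold and Plet1 2.39-fold lower in KO, with tight lines and no overlap. Plet1 missed the threshold when its probe sets were averaged (-0.77, adjusted p = 0.222), when dim genes were kept in (adjusted p = 0.0694) and when cKO line 2 was left out (adjusted p = 0.0750). Both genes missed it with the variance trend left off, at an adjusted p of 0.0503 for each. Hand1, a factor of trophoblast giant cells, read 165 and 145 in KO lines and 121 and 128 in cKO lines (0.30, adjusted p = 0.708). Ascl2, a factor of the spongiotrophoblast, read 131 and 133 in KO lines and 175 and 262 in cKO lines (-0.67, adjusted p = 0.330).

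The trophectoderm is an epithelium, and of 15 genes of its keratins, junctions and surface 13 were tested. Of the 13, 7 fell, 0 rose and 6 did not pass, while 1.57% of all genes tested fell and 0.632% rose. The median log2 fold change of the 13 was -0.87. Genes of this list had shown falls in earlier results of these data when it was drawn up, so the count is no independent evidence of its direction. The keratin Krt19 read 347 and 305 in KO lines 1 and 2, against 1458 and 1357 in cKO lines 1 and 2 (log2 fold change -2.10, SE 0.16, adjusted p = 0.00441). The desmosomal protein Dsp read 348 and 211 in KO lines, against 1681 and 861 in cKO lines (-2.13, adjusted p = 0.0326). The paired keratins of simple epithelia, Krt8 (-1.81, adjusted p = 0.0113) and Krt18 (-1.57, adjusted p = 0.0192), fell as well, as did the galectin Lgals3 (-1.50, adjusted p = 0.0197) and the claudins Cldn6 (-1.54, adjusted p = 0.0197) and Cldn7 (-0.87, adjusted p = 0.0483). With 1 array left out 6 or 7 of the 13 passed, and without the variance trend only Krt19 did. Dsp missed the threshold when its probe sets were averaged (-1.42, adjusted p = 0.157) and when dim genes were kept in (adjusted p = 0.0589). Cldn7, close to the threshold, missed it in 7 of the alternatives, among them those that left out KO line 2 (-0.76, adjusted p = 0.0803) or cKO line 2 (-0.74, adjusted p = 0.153).

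**Figure D4:**
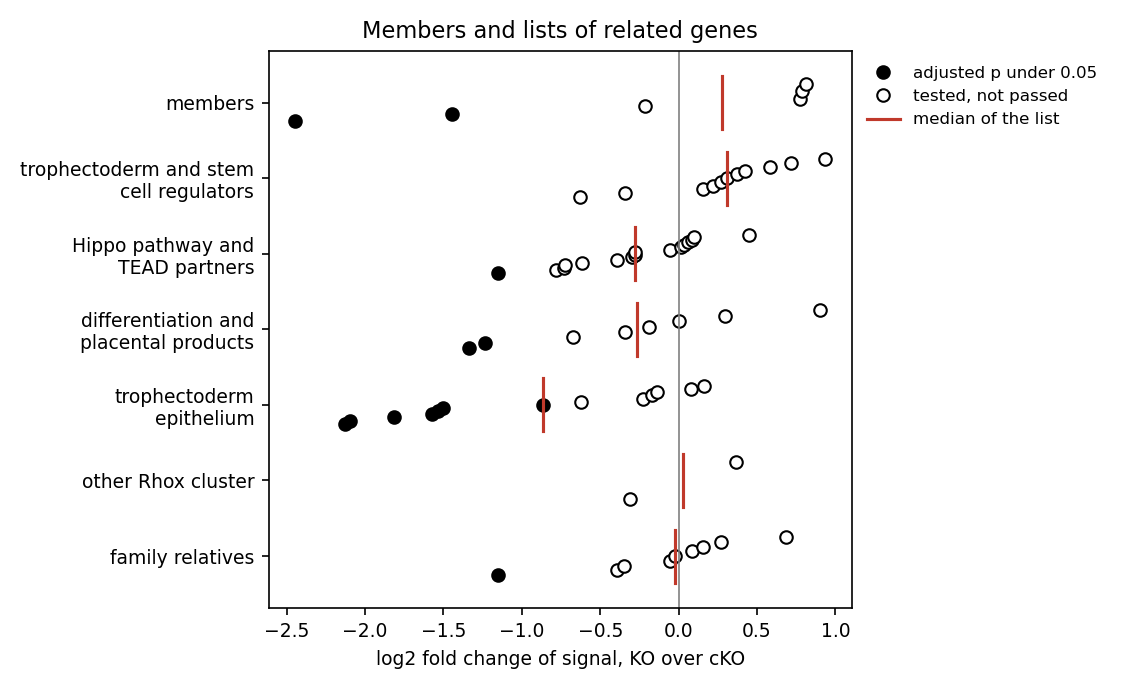
Log2 fold change (KO over cKO) of each tested gene in the members and in 6 lists of related genes (rows), filled where the adjusted p was under 0.05, with the median of each list as a red bar. The trophectoderm epithelium holds 7 filled points, all at negative values, and the regulators of trophectoderm and trophoblast stem cells hold 0.

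Markers of other cell types moved between the groups as well. Of 13 feeder fibroblast markers 9 were tested and 2 fell in limma, beside 1.57% of all genes tested. All 9 had negative log2 fold changes, where 51.4% of all genes tested had positive ones. Among the 9, Col3a1 read 67.8 and 67.0 in KO lines 1 and 2, against 299 and 145 in cKO lines 1 and 2. Dcn read 67.1 and 61.9 in KO lines, against 186 and 133 in cKO lines. These KO values lay under the filter level, so both genes passed the filter through their cKO lines alone. The signal summed over the 13 was 1748 and 1743 in KO lines 1 and 2, against 4008 and 2639 in cKO lines 1 and 2. No marker was listed at 0, and Lum, Prrx1 and Fap were under the filter level on every array. Among the untested markers Prrx1 was higher in KO lines, at 60.1 and 53.8 against 30.7 and 31.0 in cKO lines. Lum, Twist1 and Fap had lower means in KO lines. The markers that fell were the collagen gene Col5a1 (-1.43, adjusted p = 0.0295) and the surface protein gene Thy1 (-1.20, adjusted p = 0.0483). With no filter on low values, with probe sets averaged or without the variance trend, 0 feeder markers passed. Of the 9, 1 fell without KO line 2, 1 without cKO line 1 and 4 without cKO line 2. Of 14 primitive endoderm markers 6 were tested, 3 fell and 1 rose, while 1.57% of all genes tested fell and 0.632% rose. The signals summed over the 14 were 6368 and 6572 in KO lines and 15224 and 13131 in cKO lines. The basement membrane genes Sparc (-1.67, adjusted p = 0.00441), Col4a1 (-1.15, adjusted p = 0.0483) and Lamb1 (-0.87, adjusted p = 0.0483) fell, and Lama1 (0.87, adjusted p = 0.0430) rose. Of these Sparc alone passed in every alternative run, and it was the only one of the 6 to pass without cKO line 1. In this list Sox7, Foxa2, Afp and Ttr were under the filter level on every array, and Gata4, Gata6, Sox17 and Pdgfra were too dim on average to be tested. Sparc alone read 2313 and 2478 in KO lines and 7756 and 7523 in cKO lines, a large part of the summed signals. The part of these cells in the falls of Plac8, Cited1 and the epithelial genes was not tested. With cKO line 1 left out, the log2 fold change was -2.54 for Plac8 and -1.29 for Cited1, and the feeder median was -0.62 in place of -1.20. With cKO line 2 left out, these values were -2.35, -1.60 and -1.08. Each of these fits rests on 1 cKO line and does not test the part of the feeders. All 8 ES cell markers were tested and 0 passed in limma. An unadjusted p under 0.05 was reached by 5 and 7 were positive, against 13.8% and 51.4% of all genes tested. Sox2 and Esrrb are also in the list of trophectoderm regulators, so the medians of these lists are not separate observations. The median log2 fold change of the 8 was 0.59. Their summed signal was 62414 and 54252 in KO lines 1 and 2, against 46685 and 37681 in cKO lines 1 and 2. The smallest p-values belonged to Tfcp2l1 (1.24, adjusted p = 0.0889) and Sox2, and 7 of the 8 passed under a block for the line number, 5 without cKO line 1 and 0 without cKO line 2. The part of these differences in ES cell markers in the higher values of Rhox6, Rhox9 and Tfap2c was not tested. Esrrb is itself among the 8 markers. Of 7 germ cell markers, a class that also transcribes Rhox6, Rhox9 and Tfap2c, 6 were tested and 0 passed in limma. An unadjusted p under 0.05 was reached by 3 of the 6, against 13.8% of all genes tested. Of the tested markers the smallest p-values belonged to Mael (-1.28, adjusted p = 0.0994) and Prdm1 (1.26, adjusted p = 0.103). Either passed with centring on the median, under a block for the line number and in some fits with 1 array left out.

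**Figure D5:**
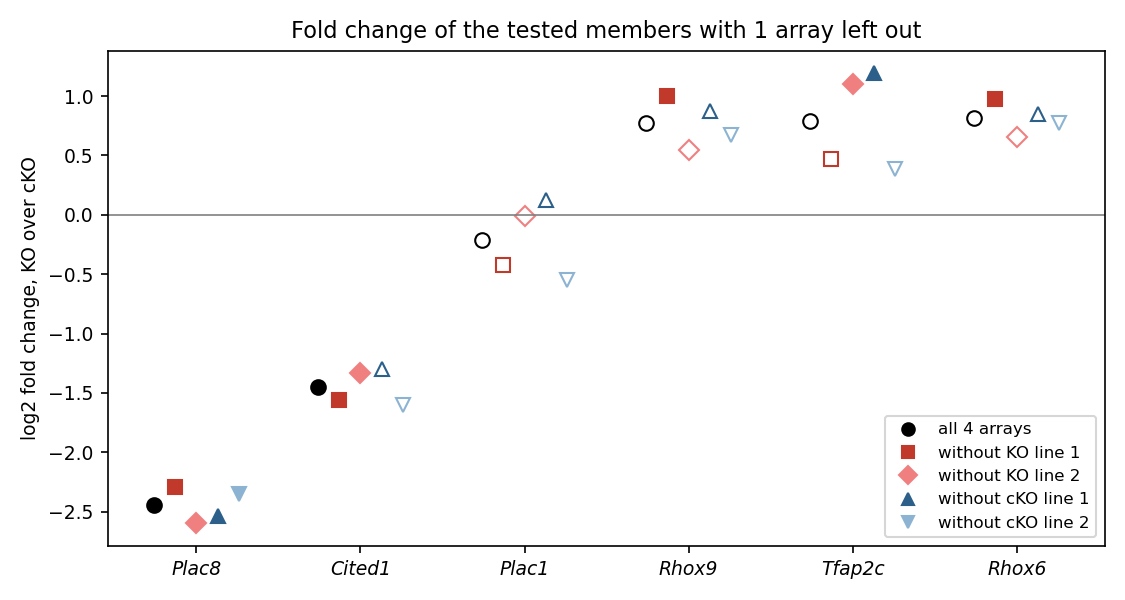
Log2 fold change (KO over cKO) of the 6 tested members with all 4 arrays (black) and with each array left out in turn, filled where the adjusted p was under 0.05 in limma. Plac8 is filled in every fit and stays between -2.60 and -2.29, Cited1 is open without either cKO line, and Plac1 crosses 0 without cKO line 1.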

How the data were processed

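Total RNA of 4 mouse ES cell lines was measured on 1 Affymetrix array each. The deposited values are intensity signals; MAS5 is named in the submitters' processing notes, its settings are not given in the sources used here, and detection calls were not used. Of 45101 probe sets, 34945 name 1 gene and are no control; symbols were brought up to date through RefSeq (GRCm38.p6) for 34741. A gene was read from its probe set of highest mean log2 signal. A pseudocount of 4.79, the 10th percentile, was added before log2, and limma 3.58.1 (R 4.3.3; eBayes with a trend, 2 residual and 5.13 prior degrees of freedom) tested KO against cKO over 10916 genes. The procedure was tested on simulated data with independent errors for each array. Those data held no effect shared by lines of the same number, so they do not check the calls under such an effect. Members and lists were chosen with earlier results of these data known. The genes named are the members, Kdm6a, in each other list up to 4 of the called genes of largest change or, with none called, the 2 of smallest p, and the 3 nearest patterns of each called member; others were named after their values were seen. Summaries and plots used Python 3.11.15, numpy 2.4.6, pandas 2.3.3, scipy 1.17.1 and matplotlib 3.10.9. Alternatives varied the pseudocount, filter, normalization, probe set rule, variance model, block and arrays; those for genes outside the members, and for the counts of the other lists, were added after seeing the data.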

Additional observations from a re-analysis of the deposited data

How the results depend on the processing

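Of 10916 genes, 240 passed, against 147 with no filter on low values, 154 with the filter on the lower 60%, 129 with probe sets of a gene averaged, 28 without the variance trend, 428 at an adjusted p under 0.1, and 228 to 432 with 1 array left out (432 without KO line 1). Of the members, 2 passed, against 1 (Plac8) with no filter, with the filter on the lower 60%, which leaves out Cited1 and Plac1, and without the trend, and 1 to 4 with 1 array left out: 1 without cKO line 2 (Plac8), 4 without KO line 1 (with Cited1, Rhox6 and Rhox9), 2 without cKO line 1 (Plac8 and Tfap2c) and 3 without KO line 2 (Plac8, Cited1 and Tfap2c). The labels share line numbers and do not say whether these pair the lines. With the line number as a replicate block 1048 genes and 5 members passed, all tested members but Plac1, and the deviations of the lines numbered 1 from their group means correlated at 0.52 over 10916 genes. The sign turned for Plac1 without cKO line 1 (0.12, against -0.55 without cKO line 2), and for Rhox13 without cKO line 2 (0.04) and without KO line 1 (0.51), while Rhox13 ran from -1.13 to 0.51 over the arrays left out. The regulators of trophectoderm and trophoblast stem cells gave 0 to 4 calls and the trophectoderm epithelium 1 to 8, with the 4 and the 8 under the block. The cause was not tested. With 1 array gone, the single line left in that group borrows its spread from the other group. Members under a signal of 77.7 allow no statement about change.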

Other observations

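Several members differed between lines of the same genotype. Line 1 read above line 2 in either group for Plac1, Cdx2, Gata3, Tead4, Tfap2c and Cited1, by 1.42-fold for Cdx2 and 1.88-fold for Tead4 in KO lines, and by 2.41-fold and 1.44-fold in cKO lines. Plac8 and Elf5 read lower in line 1 than in line 2 of either group. These orders are for the probe set that stands for each gene. In cKO lines 1 and 2 the other probe set of Elf5 read 6.79 and 2.97, and that of Cdx2 read 11.6 and 15.3, each the other way at dim signals. For Rhox6 and Rhox9 line 1 was lower than line 2 in KO and higher in cKO. The median signal of the arrays, which was higher in line 1 of either group, moved the same way as the first 6 genes, and its part in them was not tested.

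Of the 10 members 4 lie on the X chromosome with Kdm6a, namely Plac1, Cited1, Rhox6 and Rhox9. They did not share a direction, with log2 fold changes of -0.21, -1.45, 0.81 and 0.77 in that order.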
